A study of Mus musculus with 4 samples.

Results

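The genes described here encode 10 enzymes of de novo purine synthesis, namely *Prps1*, *Ppat*, *Gart*, *Pfas*, *Paics*, *Adsl*, *Atic*, *Impdh1*, *Impdh2* and *Gmps*. They were chosen by their known place in the pathway, with earlier results of these data known. Each was found by symbol among the 39179 genes listed in the deposited count data. All 10 were matched to 1 Ensembl identifier each, and all 10 passed the filter on low counts that left 11483 genes for testing. RNA was sequenced from B16F1, an established mouse melanoma cell line, in 2 libraries of parental control cells, which are usually grown on rigid 2D dishes, and in 2 libraries of tumor repopulating cells (TRCs). The TRCs are B16F1 cells that had grown from single cells into spheroids in soft 3D fibrin gels of 90 Pa stiffness and were isolated on day 5, and most seeded cells do not survive in such gels. No agent or engineered allele is named for either group. Each group has a replicate 1 and a replicate 3, and no source says whether they came from separate cultures, so p-values measure the spread between these libraries, which may be technical.

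De novo synthesis builds the purine ring piece by piece on an activated ribose, PRPP, from glutamine, glycine, aspartate, carbon dioxide and formyl groups carried by folate. The first complete purine nucleotide is IMP, from which separate branches lead to AMP and GMP. Dividing cells need purines for DNA, RNA and the nucleotides that carry energy and signals, and they can also recover them from bases and nucleosides by salvage. Several of the enzymes carry out more than 1 reaction on a single protein chain.

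The libraries held 35948295 to 43511554 counts assigned to genes, and the enzyme genes had between 804 and 11018 counts each, far above the 3 counts taken as the smallest detectable number. Levels are given as CPM, counts scaled to a common library size after TMM normalization in edgeR, with control replicate 1 before control replicate 3 and TRC replicate 1 before TRC replicate 3 throughout. The comparison of TRCs with controls used the exact test of edgeR over all 11483 genes, with Benjamini-Hochberg adjusted p (FDR) and a threshold of 0.05. DESeq2 supplied the standard error (SE) of each log2 fold change. Of 14 melanocyte markers, all were detected, with summed levels of 20519 and 17169 CPM in the controls and 25746 and 28462 CPM in the TRCs. Of 11 leukocyte markers, 7 were at 0 in every library, *Ptprc* among them, and the list summed to between 1.71 and 4.99 CPM. The 10 markers of stroma and endothelium summed to between 1.39 and 2.27 CPM, with *Cdh5* and *Kdr* at 0. Alignments that were not unique, which were not assigned to genes, were 15.2% and 17.1% of the total for the controls and 18.3% and 25.2% for the TRCs.

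Most of the pathway was expressed at a lower level in TRCs than in parental cells. Of the 10 enzyme genes, 6 fell, namely *Ppat*, *Gart*, *Pfas*, *Adsl*, *Atic* and *Impdh2*, and 0 rose, while 7.05% of all genes tested were called lower and 8.81% higher. The log2 fold changes of the fallen genes ran from −0.76 for *Impdh2* to −1.12 for *Atic*, which corresponds to levels 1.69-fold to 2.17-fold higher in control cells. The other genes, *Prps1*, *Paics*, *Impdh1* and *Gmps*, did not pass the test, with log2 fold changes of −0.55, −0.35, −0.081 and −0.43. All 10 log2 fold changes were negative, with a median of −0.82, beside a median of 0.0034 over all genes tested. For 8 of the genes both TRC libraries lay below both control libraries, a separation found for 30.4% of all genes tested. All 6 calls also passed with edgeR's quasi-likelihood test, which called 4.24% of all genes lower, with the same test and a replicate block (2.68%) and with DESeq2's Wald test (8.24%). They passed as well with a filter of at least 1 CPM in 3 samples (6.88% of all genes lower), without a filter (3.89%), with DESeq2's size factors (7.01%) and with library sizes alone (7.43%).

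**Figure D1:**
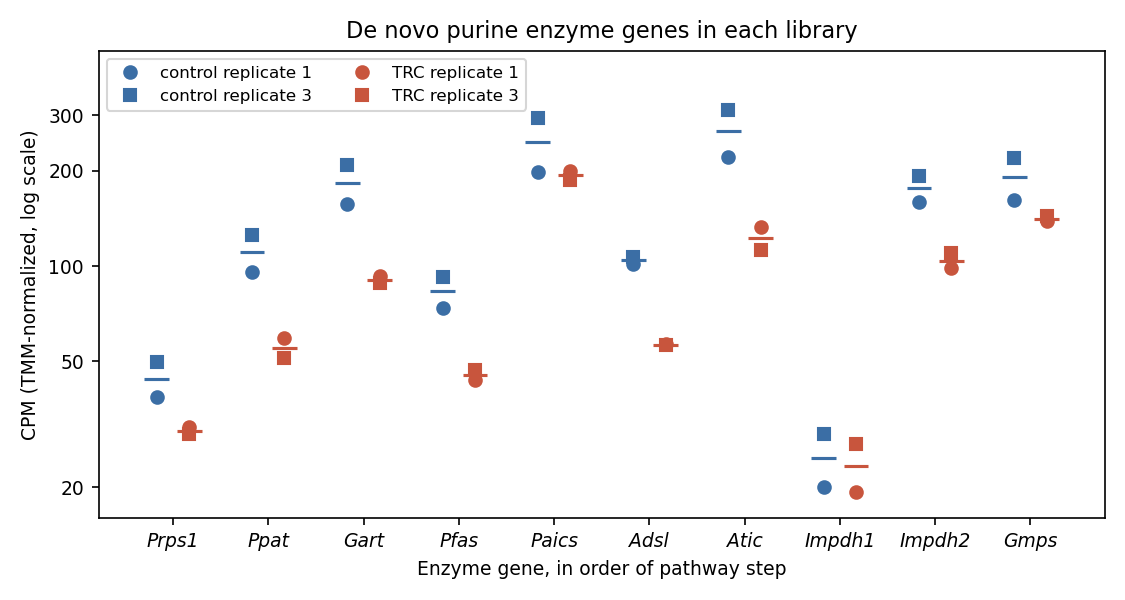
TMM-normalized CPM (log axis) of the 10 enzyme genes in each of the 4 libraries, in order of pathway step, with circles for replicate 1, squares for replicate 3 and short lines for group means. The TRC points lie below both control points for 8 genes and overlap with them for *Paics* and *Impdh1*.

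The control libraries differed from each other. All 10 enzyme genes were higher in control replicate 3 than in control replicate 1, which was the case for 50.4% of all genes tested, and the median absolute difference on the log2(CPM + 0.5) scale was 0.40 for the enzyme genes and 0.25 for all genes tested. Between the TRC libraries the median absolute difference was 0.092 for the enzyme genes and 0.21 for all genes tested, and 6 of the 10 were higher in TRC replicate 1, as were 49.9% of all genes tested. Summed over the enzyme genes, the level was 1228 and 1634 CPM for the controls and 873 and 853 CPM for the TRCs, so that the lower control library still lay above both TRC libraries. With control replicate 3 left out, 4 enzyme genes were called lower, against 3.16% of all genes, and with control replicate 1 left out 6, against 7.44%. With TRC replicate 1 left out the count was 4, against 2.34% of all genes, and with TRC replicate 3 left out it was 2, *Gart* and *Atic*, against 2.36%. In these fits the lone library of a group is assumed to vary like the other group. Genes of the cell cycle differed between the control libraries in the same direction, with all 25 genes of a fixed list higher in control replicate 3, and the part of cell growth in the levels of the enzyme genes was not tested.

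The pathway starts from PRPP, made from ribose 5-phosphate by PRPP synthetase. *Prps1* (ENSMUSG00000031432), which encodes a widely expressed form of this enzyme, is at chrX:140456613-140476140 (plus strand, GRCm38 here and for the other genes). It had 38.6 and 49.6 CPM in the controls and 31.0 and 29.4 CPM in the TRCs. The groups did not overlap, but the log2 fold change of −0.55 (SE 0.24) did not pass the threshold, with an exact test p of 0.0288 and FDR = 0.123.

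PPAT transfers an amino group from glutamine to PRPP, the committed step of the pathway. *Ppat* (ENSMUSG00000029246), at chr5:76913249-76951578 (minus strand), had 95.7 and 125.9 CPM in the controls and 59.2 and 51.3 CPM in the TRCs. Both TRC libraries were below both controls. Group means were 111 ± 21.3 CPM (SD, n = 2) for control cells and 55.3 ± 5.56 CPM (SD, n = 2) for TRCs, and the gene fell with a log2 fold change of −1.0 (SE 0.23, exact test FDR = 0.000653). Without TRC replicate 3 the FDR was 0.0628.

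GART is a trifunctional protein that catalyzes the second, the third and the fifth step, one of them with formyl folate as a donor. *Gart* (ENSMUSG00000022962), at chr16:91621186-91646952 (minus strand), had 158 and 209 CPM in the controls and 93.0 and 88.3 CPM in the TRCs. It fell by 1.01 on the log2 scale (SE 0.22, exact test FDR = 0.000644), and its call held with each library left out in turn. PFAS, which catalyzes the fourth step with glutamine as the nitrogen donor, is encoded by *Pfas* (ENSMUSG00000020899) at chr11:68985697-69008460 (minus strand). *Pfas* had 73.7 and 92.7 CPM in the controls and 43.7 and 46.8 CPM in the TRCs, a log2 fold change of −0.88 (SE 0.23, exact test FDR = 0.00229). The groups of both genes were clearly apart, with a gap of 0.76 for *Gart* and 0.65 for *Pfas* on the log2(CPM + 0.5) scale between the nearest control and TRC libraries. The FDR of *Pfas* was 0.0735 without control replicate 3, 0.0942 without TRC replicate 1 and 0.052 without TRC replicate 3.

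PAICS is a bifunctional enzyme that adds carbon dioxide and then aspartate to the growing ring. *Paics* (ENSMUSG00000029247) is at chr5:76951307-76967509 (plus strand). It had 199 and 295 CPM in the controls and 199 and 188 CPM in the TRCs. Control replicate 1 and TRC replicate 1 were at the same level, and only control replicate 3 stood apart. The log2 fold change was −0.35 (SE 0.25, exact test FDR = 0.375), and without control replicate 3 it was −0.037.

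ADSL releases fumarate from the product of PAICS and acts a second time in the branch that leads to AMP. *Adsl* (ENSMUSG00000022407), at chr15:80948490-80970946 (plus strand), had 102 and 107 CPM in the controls and 56.8 and 56.1 CPM in the TRCs. Its replicates were the closest of the 10 genes in both groups. Group means were 105 ± 3.79 CPM (SD, n = 2) for control cells and 56.5 ± 0.494 CPM (SD, n = 2) for TRCs. The log2 fold change was −0.89 (SE 0.20, exact test FDR = 0.00121), with an FDR of 0.0527 without TRC replicate 3. ATIC adds the last formyl group and closes the ring to give IMP. *Atic* (ENSMUSG00000026192), at chr1:71557150-71579631 (plus strand), had 221 and 312 CPM in the controls and 133 and 113 CPM in the TRCs. Its decrease was the largest among the enzyme genes, with means of 267 ± 64.5 CPM (SD, n = 2) for control cells and 123 ± 14.6 CPM (SD, n = 2) for TRCs and a log2 fold change of −1.12 (SE 0.24, exact test FDR = 0.000277). The call of *Atic* held with each library left out, with log2 fold changes from −1.34 without control replicate 1 to −0.85 without control replicate 3.

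IMP dehydrogenase, the rate-limiting enzyme of the branch to GMP, is encoded by 2 genes, of which only *Impdh2* passed the test. *Impdh2* (ENSMUSG00000062867), at chr9:108560286-108565584 (plus strand), is the form known to be induced in proliferating cells. It had 159.6 and 193 CPM in the controls and 98.6 and 109.9 CPM in the TRCs, without overlap, and fell by 0.76 on the log2 scale (SE 0.21, exact test FDR = 0.0126). Its FDR was 0.149 without control replicate 3, 0.182 without TRC replicate 1 and 0.0753 without TRC replicate 3. An annotated copy, *Impdh2-ps*, had 512 and 470 counts in the controls and 304 and 306 in the TRCs, and reads shared by both loci are uncertain. *Impdh1* (ENSMUSG00000003500), at chr6:29200434-29216364 (minus strand), had 19.995 and 29.5 CPM in the controls and 19.3 and 27.4 CPM in the TRCs. Its groups overlapped, and replicate 3 was higher than replicate 1 in both. The log2 fold change of −0.081 (SE 0.31, exact test FDR = 0.902) had a sign that depended on the library left out, with 0.23 without control replicate 3, 0.13 without TRC replicate 1, −0.34 without control replicate 1 and −0.36 without TRC replicate 3.

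GMPS completes GMP with an amino group from glutamine. *Gmps* (ENSMUSG00000027823), at chr3:63976106-64022579 (plus strand), had 162 and 220.0 CPM in the controls and 139 and 144 CPM in the TRCs. The groups did not overlap, by a gap of 0.17 on the log2(CPM + 0.5) scale, and the log2 fold change of −0.43 (SE 0.23, exact test FDR = 0.224) did not pass the threshold.

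**Figure D2:**
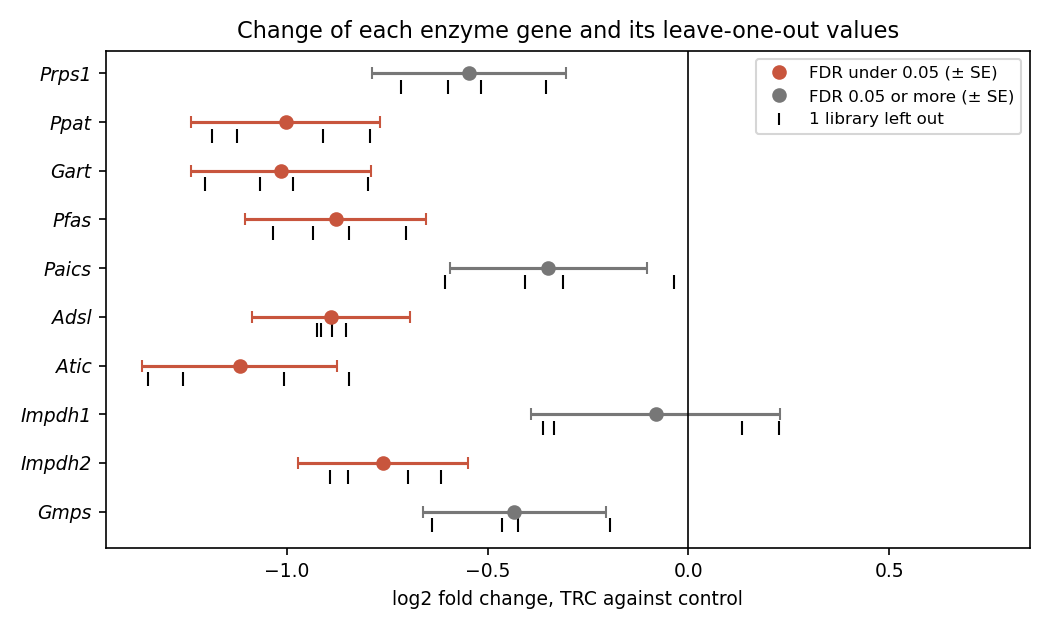
Log2 fold change of each enzyme gene in TRCs against control cells from edgeR's exact test (points), with the DESeq2 standard error as bars and the values with 1 library left out as ticks below. Red points passed the FDR threshold of 0.05, and the ticks lie on both sides of 0 for *Impdh1* alone.

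Ordered along the pathway, the genes for the enzymes from PPAT to the closure of the ring fell with the exception of *Paics*, and in the GMP branch *Impdh2* fell while *Gmps* did not pass the test. To compare levels between genes, CPM were divided by the length of the annotated exons in kilobases. In control cells *Paics* had the highest level, with 78.6 CPM per kilobase, followed by *Impdh2* with 57.4, *Gart* with 35.6, *Atic* with 33.4, *Ppat* with 25.1, *Gmps* with 23.5, *Prps1* with 22.1, *Adsl* with 18.6, *Pfas* with 10.5 and *Impdh1* with 7.51 CPM per kilobase. Neighbors from *Gart* down to *Prps1* were not separated by their replicates, and all other neighbors in this order were. In TRCs *Paics* and *Impdh2* were again highest, with 61.7 and 33.9 CPM per kilobase, and *Pfas* was lowest with 5.70, not separated from *Impdh1* with 7.10. *Gmps* was next to *Ppat* in control cells, while in TRCs it had 17.4 CPM per kilobase, above *Ppat* with 12.5 and not separated from *Gart* with 17.6. Among all genes tested, the length-corrected level of *Paics* was at percentile 95.4 in control cells and 94.0 in TRCs, while that of *Ppat* went from percentile 81.3 to 65.2 and that of *Adsl* from 74.8 to 58.5. Exon lengths cover all annotated isoforms, so the levels of genes with rarely used exons are understated.

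**Figure D3:**
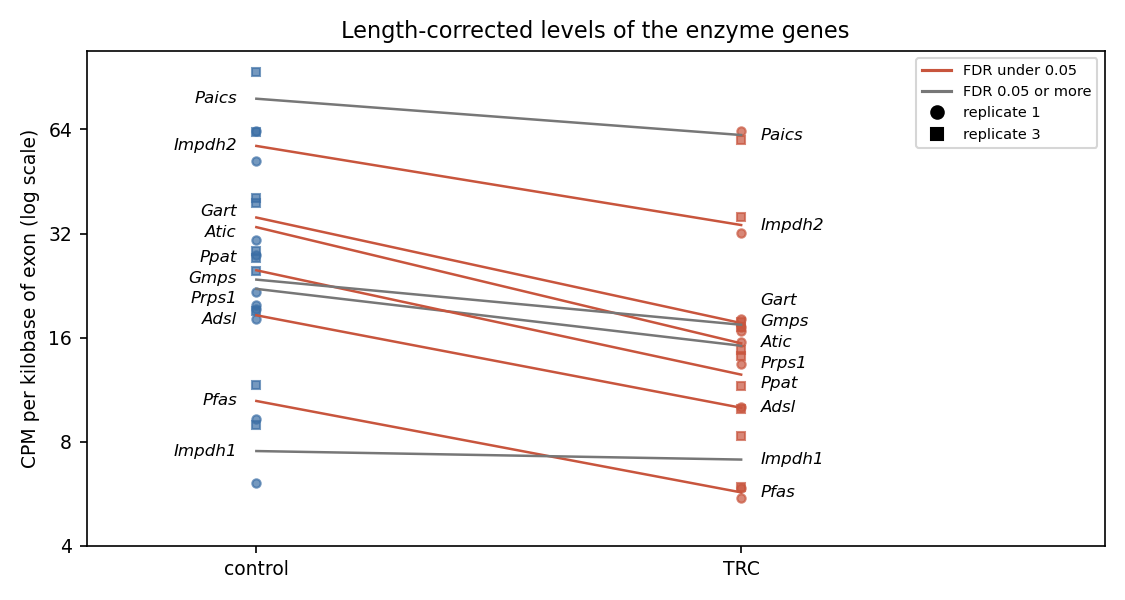
CPM per kilobase of annotated exon (log axis) of the 10 enzyme genes in control cells and TRCs, with points for single libraries and lines between group means, red for genes with an FDR under 0.05. *Paics* and *Impdh2* are the highest in both groups, and the line of *Impdh1* is almost flat.

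*Ppat* and *Paics* encode the enzymes of an early and a later step and lie head to head on chromosome 5 with their annotated starts 271 bases apart, so that 272 bases of exon overlap on opposite strands. The number of *Ppat* reads per *Paics* read was 0.482 and 0.427 for the controls and 0.297 and 0.273 for the TRCs. Both TRC libraries lay below both control libraries, and the mean ratio was 0.454 ± 0.0385 (SD, n = 2) in control cells and 0.285 ± 0.0167 (SD, n = 2) in TRCs. This ratio was chosen after the values of the genes were seen. With 2 libraries against 2, a two-sided exact permutation test gave p = 0.333, the smallest value it can give. The counting of reads in the shared stretch depends on the strand setting of the counter, which is not given in the sources used here.

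The isozyme pairs were compared by the share of each form in the length-corrected reads. *Impdh2* made up 89.5% and 87.5% of the IMP dehydrogenase reads in the controls and 84.5% and 81.1% in the TRCs. The means were 88.5 ± 1.41% (SD, n = 2) and 82.8 ± 2.42% (SD, n = 2), without overlap, and *Impdh2* remained the main form in every library. *Prps1* made up 64.5% and 63.4% of the reads of *Prps1* and *Prps2* in the controls and 57.5% and 57.8% in the TRCs, with means of 63.9 ± 0.761% (SD, n = 2) and 57.6 ± 0.216% (SD, n = 2). Both shares were lower in both TRC libraries than in both controls, and the exact permutation test (two-sided) gave p = 0.333 for each, the smallest value possible with 2 libraries against 2. *Prps1l3*, a further PRPP synthetase gene that is a close copy of *Prps1*, was left out of this share. It had 2165 and 1857 counts in the controls and 1830 and 1935 in the TRCs, and reads that fit both genes were not counted. Its mean length-corrected level was 29.5 CPM per kilobase in control cells and 26.3 in TRCs. The level of *Prps1* was lower, with 22.1 and 15.2, as was that of *Prps2*, with 12.5 and 11.1.

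**Figure D4:**
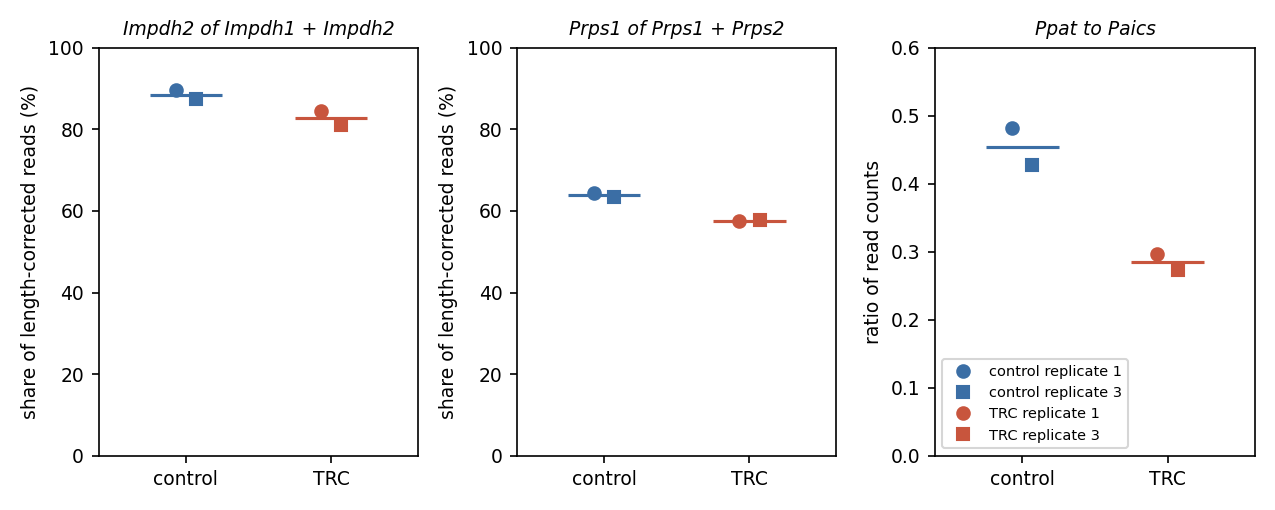
Share of *Impdh2* in *Impdh1* plus *Impdh2* reads (left), share of *Prps1* in *Prps1* plus *Prps2* reads (middle), both length-corrected and in percent, and the ratio of *Ppat* to *Paics* read counts (right) in each library, with lines for group means. In all panels both TRC points lie below both control points.

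Since several enzyme genes fell together, the sequences around their starts were examined for the palindromic E-box CACGTG, to which MYC and related factors bind in many genes of nucleotide synthesis. RefSeq windows of 300 bases, 250 before and 50 after the annotated start on GRCm38.p6, were found for 9 of the 10 genes, with 2 windows for *Impdh1*. The motif was present in the windows of 3 genes, *Atic*, *Paics* and *Impdh2*, at 7, 203 and 110 bases before the RefSeq start. By the gene positions given above, which have other starts, the motif lies inside *Impdh2*, across the start of *Atic* and before *Paics*. It was present in 7.15% of all 32851 windows and in 10.3% of the 11457 windows of genes tested. *Atic* and *Impdh2* fell in TRCs and *Paics* did not pass the test. The windows of the fallen genes *Ppat*, *Gart* and *Adsl* lacked the motif, and *Pfas* had no window. Whether the motif has a part in the decrease was not tested. The windows of *Atic*, *Impdh2*, *Paics* and its head-to-head neighbor *Ppat* are shown 5′ to 3′ on the strand of the gene. The E-box is in capitals. The *Atic* window is chr1:71556906-71557205 on the plus strand, that of *Impdh2* chr9:108560186-108560485 on the plus strand, that of *Paics* chr5:76951052-76951351 on the plus strand and that of *Ppat* chr5:76951529-76951828 on the minus strand.
Atic: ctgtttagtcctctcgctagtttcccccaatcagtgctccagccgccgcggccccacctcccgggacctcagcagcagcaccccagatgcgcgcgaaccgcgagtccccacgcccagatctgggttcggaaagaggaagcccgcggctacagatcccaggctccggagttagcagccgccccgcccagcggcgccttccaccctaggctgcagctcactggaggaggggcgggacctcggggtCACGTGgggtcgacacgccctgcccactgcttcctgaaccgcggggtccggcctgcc
Impdh2: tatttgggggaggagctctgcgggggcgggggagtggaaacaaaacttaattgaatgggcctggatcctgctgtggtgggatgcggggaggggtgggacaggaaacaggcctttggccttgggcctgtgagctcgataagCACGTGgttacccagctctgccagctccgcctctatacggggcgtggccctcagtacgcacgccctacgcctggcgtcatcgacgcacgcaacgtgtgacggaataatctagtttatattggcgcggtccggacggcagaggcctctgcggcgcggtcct
Paics: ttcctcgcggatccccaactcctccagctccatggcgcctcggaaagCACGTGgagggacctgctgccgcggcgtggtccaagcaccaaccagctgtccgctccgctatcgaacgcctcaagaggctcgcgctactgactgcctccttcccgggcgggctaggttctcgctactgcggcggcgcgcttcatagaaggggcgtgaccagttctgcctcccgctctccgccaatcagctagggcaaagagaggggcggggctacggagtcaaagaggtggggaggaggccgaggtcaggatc
Ppat: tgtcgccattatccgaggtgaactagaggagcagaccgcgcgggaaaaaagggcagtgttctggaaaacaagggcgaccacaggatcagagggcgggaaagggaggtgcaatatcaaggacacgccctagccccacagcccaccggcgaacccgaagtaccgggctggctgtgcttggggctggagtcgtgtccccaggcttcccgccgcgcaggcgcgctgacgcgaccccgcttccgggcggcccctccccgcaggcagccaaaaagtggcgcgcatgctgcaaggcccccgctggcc
The GC content of these windows was 69.7% for *Atic*, 61.7% for *Impdh2*, 65.7% for *Paics* and 66.7% for *Ppat*. The reverse or forward form of CCGGAA, the core bound by ETS factors, was found in the windows of *Ppat*, *Gart*, *Gmps* and *Prps1*, and in 14.9% of all windows. The CCAAT box was found in the windows of *Atic*, *Paics*, *Impdh2*, *Gart* and *Prps1*, and in 37.4% of all windows. For both motifs the share among genes tested was not computed. The factor genes tested, *Myc*, *Max* and *Atf4*, gave no call in edgeR's exact test. *Myc* had 78.9 and 87.0 CPM in the controls and 73.7 and 46.7 CPM in the TRCs (log2 fold change −0.46, SE 0.27, exact test FDR = 0.227), and its partner *Max* had a log2 fold change of −0.50 (SE 0.19, exact test FDR = 0.105). For *Atf4*, a stress-responsive factor that controls genes of amino acid and one-carbon metabolism, it was −0.72 (SE 0.32, exact test FDR = 0.11). *Atf4* had 837 and 465 CPM in the controls and 299 and 492 CPM in the TRCs, overlapping between groups. Of the 3 factor genes tested, 2 had an unadjusted exact test p under 0.05. The share of all genes tested at this threshold was not computed. The quasi-likelihood test and DESeq2's Wald test called 0 of the 3. *Mycn* and *Mycl* were below the filter.

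Genes that share a step with the enzymes were tested as well. Of 6 such genes, 1 fell and 1 rose, while 7.05% of all genes tested were called lower and 8.81% higher. *Prpsap1*, which encodes a protein that binds PRPP synthetase and restrains it, fell from 107 and 174 CPM in the controls to 70.8 and 76.5 CPM in the TRCs, a log2 fold change of −0.93 (SE 0.27, exact test FDR = 0.00566). *Adssl1*, the muscle-type form of adenylosuccinate synthetase in the branch to AMP, rose from 18.2 and 6.04 CPM to 37.8 and 21.0 CPM, a log2 fold change of 1.28 (SE 0.47, exact test FDR = 0.0412). The call of *Prpsap1* was lost with the quasi-likelihood test and when control replicate 3, TRC replicate 1 or TRC replicate 3 was left out, and that of *Adssl1* with the quasi-likelihood test, without a filter, with library sizes alone and when control replicate 3 or TRC replicate 1 was left out. The common form *Adss* had a log2 fold change of −0.52 (SE 0.22, exact test FDR = 0.115), *Prps2* one of −0.17, *Prps1l3* one of −0.16 and *Prpsap2* one of −0.094, and *Prps1l1* had 0 counts in every library.

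The folate pathway supplies the formyl groups used by GART and ATIC. Of 13 genes tested, 5 fell and 0 rose, beside 7.05% of all genes tested called lower and 8.81% called higher. The median log2 fold change was −0.68. An unadjusted exact test p under 0.05 was found for 7 genes, and the share of all genes tested at this threshold was not computed. *Mthfd1*, which makes formyl tetrahydrofolate in the cytosol, fell from 112 and 179 CPM to 78.4 and 67.1 CPM (log2 fold change −1.0, SE 0.27, exact test FDR = 0.00265). *Shmt1* and *Shmt2*, the cytosolic and mitochondrial serine hydroxymethyltransferases, fell by 1.22 and by 1.17 on the log2 scale. *Mthfd2l*, also called and named after its values were seen, fell by 2.03 on the log2 scale from a low level of 2.72 and 3.97 CPM. Fewer genes were called lower without TRC replicate 3 and without control replicate 3, with 3 in each fit, while 4 were called without TRC replicate 1 and 5 lower and 1 higher without control replicate 1. In the pentose phosphate pathway, which provides the ribose, 1 of 8 genes fell, *Pgd*, with a log2 fold change of −0.72 (SE 0.27, exact test FDR = 0.0451), and the median was 0.0079. *G6pdx* and *Taldo1* had log2 fold changes of −0.54 and −0.45 and *Rpe* of 0.16, all without a call. *Pgd* was not called with the quasi-likelihood test, without a filter, or when control replicate 3, TRC replicate 1 or TRC replicate 3 was left out.

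Salvage recovers purines from bases and nucleosides. Of 11 salvage and interconversion genes tested, 2 fell and 0 rose, with a median log2 fold change of −0.31. Of all genes tested, 7.05% were called lower and 8.81% higher. *Mtap*, which recovers adenine from methylthioadenosine, fell by 0.72 on the log2 scale (SE 0.23, exact test FDR = 0.026), and *Ampd2*, which deaminates AMP to IMP, fell by 0.74 (SE 0.28, exact test FDR = 0.0366). The number of salvage genes called was 0 without control replicate 3, 0 without TRC replicate 1, 1 without TRC replicate 3, and 0 with the quasi-likelihood test. At an unadjusted exact test p under 0.05 there were 5, and the share of all genes tested at this threshold was not computed. *Hprt*, which salvages hypoxanthine and guanine, had 117 and 168 CPM in the controls and 129.7 and 213 CPM in the TRCs, overlapping between groups, and is named after its values were seen. *Ada* had a log2 fold change of −1.04 and *Aprt* of −0.52, with exact test FDR values of 0.0694 and 0.132. An identifier was not matched for *Pnp*.

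Among 9 nucleotide kinase genes tested, *Ak4*, a mitochondrial adenylate kinase, rose from 8.77 and 13.4 CPM in the controls to 68.9 and 199.8 CPM in the TRCs, a log2 fold change of 3.60 (SE 0.42, exact test FDR = 7.47e-14). A single kinase gene was called higher under every alternative. The other 8 had negative log2 fold changes, of which *Nme1* passed at −0.77 (exact test FDR = 0.048). That call was lost with the filter of at least 1 CPM in 3 samples, with DESeq2's size factors, with the quasi-likelihood test and when control replicate 3, TRC replicate 1 or TRC replicate 3 was left out, and reads shared with its close paralog *Nme2*, which was below the filter, are uncertain. *Nme6* and *Ak1* had log2 fold changes of −0.83 and −0.84 without a call. Of 7 genes of purine breakdown and nucleotide cleansing tested, *Nudt16* rose by 1.23 on the log2 scale (SE 0.33, exact test FDR = 0.014) and 0 fell. For both lists the shares of all genes tested are 8.81% called higher and 7.05% lower. *Itpa*, *Samhd1* and *Nt5c2* had log2 fold changes of −0.53, −0.57 and −0.30. *Nudt16* was not called without control replicate 3, TRC replicate 1 or TRC replicate 3 or with the replicate block, and without control replicate 1 there were 2 breakdown genes called lower.

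Genes of de novo pyrimidine synthesis were tested for comparison, and 3 of 5 fell, beside 7.05% of all genes tested. *Cad*, which encodes the enzyme of the opening steps, had 178 and 304 CPM in the controls and 96.3 and 79.1 CPM in the TRCs (log2 fold change −1.46, SE 0.29, exact test FDR = 1.18e-05). *Umps* and *Ctps* fell by 1.23 and by 1.10 on the log2 scale, *Dhodh* had a log2 fold change of −0.37 and *Ctps2* of 0.54, both without a call. The number called was 3 with each library left out in turn, and the median over the 5 genes was −1.10. Of 25 cell cycle genes, 9 fell and 0 rose, with a median of −0.61, beside 7.05% of all genes tested called lower. At an unadjusted exact test p under 0.05 there were 15, and the share of all genes tested at this threshold was not computed. The called genes were *Mcm2* to *Mcm7*, the subunits of the replicative helicase, with *Cdc6*, *Birc5* and *Rrm2*. Their log2 fold changes ran from −1.30 for *Cdc6* to −0.69 for *Birc5*. *Mki67* had 445 and 496 CPM in the controls and 545 and 280 CPM in the TRCs, with overlap, and *Pcna* had a log2 fold change of −0.64 (SE 0.26, exact test FDR = 0.0804). The number of cell cycle genes called lower was 0 without control replicate 3, 1 without TRC replicate 1, 2 without TRC replicate 3 and 13 without control replicate 1. Fewer dividing cells and less RNA of these genes per cell cannot be told apart in bulk samples.

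**Figure D5:**
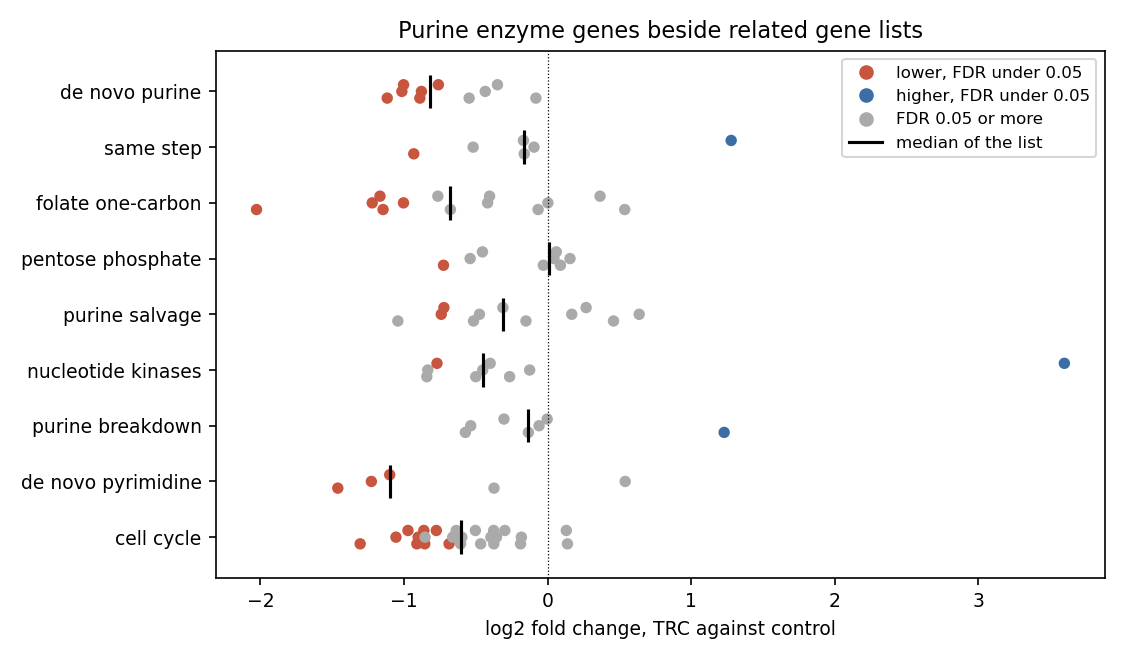
Log2 fold change in TRCs against control cells from edgeR's exact test for every tested gene of each list, in red when lower and in blue when higher at an FDR under 0.05, with black lines for list medians. The medians are −0.82 for de novo purine synthesis, −0.68 for folate genes, −1.10 for de novo pyrimidine synthesis, −0.61 for the cell cycle and 0.0079 for the pentose phosphate pathway.

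The profile of the enzyme genes over the 4 libraries was also used to find other genes like it, by the Euclidean distance between centered log2(CPM + 0.5) values and the median profile of the enzyme genes. The closest were *Sf3a2*, a splicing factor subunit gene, at a distance of 0.0224, *Ndc1*, which encodes a membrane nucleoporin, at 0.0310, and *Pitrm1*, which encodes a mitochondrial protease, at 0.0380. Their log2 fold changes were −0.78, −0.78 and −0.76. Over 4 libraries many genes can have such a profile, and the distance is given as a description.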

How the data were processed

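RNA-seq counts were analysed for 4 libraries (2 from parental cells, 2 from TRCs). Per the labels and the paper's methods, the libraries were stranded and read from a single end. Versions are those of the submitters' processing notes: Trimmomatic 0.35 for trimming and TopHat2 2.1.0, with Bowtie2 2.2.6 and SAMtools 1.3, for alignment to GRCm38. The authors counted reads with htseq-count, whose mode and strand setting are not given in the sources used here, and deposited unnormalized gene counts. The lines of htseq-count that name no gene were removed first. They held 20.2% to 29.0% of the alignments. Depth was 35948295 to 43511554 counts on genes, where 3 counts equal 0.0689 to 0.0835 CPM. The floor of 3 counts covers counting error only.

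Following the methods of the study, genes under 1 CPM in 3 or more samples were dropped, which left 11483. The paper reports fewer genes in its final table and fewer genes called, and the source of the difference was not traced. TMM factors, common plus tagwise dispersions and exact tests came from edgeR 4.0.16 under R 4.3.3 with Benjamini-Hochberg adjustment. Standard errors came from DESeq2 1.42.0. Symbols, positions and exon lengths came from GENCODE annotation of GRCm38, and 37693 of 39179 identifiers matched. Promoter windows came from RefSeq (GRCm38.p6). The scripts were tested on simulated data. The enzyme genes and the gene lists were chosen with earlier results of these data known. Named were all enzyme genes and the tested genes of the same-step list, of pyrimidine synthesis and of the regulators. Also named were the 4 genes with the smallest p from each other metabolic list, and *Mki67*, *Pcna* and the called genes of the cell cycle. The 3 nearest profiles were named too. A gene that this rule names from the folate list is counted but not reported here. Other filters, normalizations and tests and leaving out each library were alternatives. Same-numbered libraries deviated together with r = 0.027 across genes. Plots were drawn with matplotlib 3.10.9.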

Additional observations from a re-analysis of the deposited data

How the results depend on the processing

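Other filters, normalizations, the quasi-likelihood test and DESeq2's Wald test each called 6 enzyme genes lower. Leaving out 1 library at a time, the number called lower was between 2 and 6, the lowest without TRC replicate 3, and the median log2 fold change was between −0.91 and −0.66. The sign of the log2 fold change of *Impdh1* changed between −0.36 and 0.23, with 0.23 without control replicate 3 and 0.13 without TRC replicate 1, and the cause was not tested. Fits without 1 library have fewer samples. Over all genes, 1822 were called by the exact test, 1054 by the quasi-likelihood test and 785 with the replicate block. Without control replicate 3 it was 863, and without either TRC library 773. No source says whether equal replicate numbers mark a shared origin of the samples. With the replicate block 6 enzyme genes were called lower, with quasi-likelihood test FDR values from 0.0382 for *Adsl* to 0.0499 for *Impdh2*. Of the cell cycle genes, 9 were called lower in the exact test, 2 in the quasi-likelihood test and 3 with the replicate block, and of the folate genes 5, 4 and 3. With the replicate block *Prpsap1*, *Pgd*, *Nme1*, *Nudt16*, *Mtap* and *Ampd2* were not called. The ratio of *Ppat* to *Paics*, added after the data were seen, kept its direction with each library left out. Each enzyme gene had at least 804 counts in every library, while *Mycn*, *Mycl*, *Xdh* and *Ampd1* were below the filter in these libraries.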

Other observations

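Some folate genes were higher in control replicate 1 than in control replicate 3, the direction opposite to that of the enzyme genes of purine synthesis, while others were not. *Aldh1l2*, a mitochondrial formyl tetrahydrofolate dehydrogenase gene, had 147.8 CPM in control replicate 1 and 14.5 CPM in control replicate 3, and 59.9 and 102.8 CPM in TRC replicates 1 and 3. *Mthfd2* had 471 and 245 CPM in the controls and 162 and 259 CPM in the TRCs. *Shmt2* had 453 and 268 CPM in the controls and 153 and 168 CPM in the TRCs. *Atf4* was likewise higher in control replicate 1. *Mthfd1l* had 193.6 and 192.4 CPM in the controls, and *Shmt1*, with 35.7 and 49.1 CPM, and *Mthfd2l*, with 2.72 and 3.97 CPM, were higher in control replicate 3. These genes were picked after their values were seen, and the difference between the control libraries was not tested.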
